A study of Mus musculus with 9 samples.

Results

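The miRNAs described here are the late entries of the mouse miRNA catalogue, those whose mature name carries a number of 2000 or above. They were chosen by that number and by a sum of at least 5 counts over the 9 libraries of the study. The table lists 1915 mature names, of which 945 are numbered 2000 or above. Of these, 245 had at least 1 count and 117 reached the sum of 5 and are the members described below. Names numbered below 2000, let-7 included, that reached the same sum came to 493 and are called older names. Because the sum of counts chose the members, their levels over all libraries are a description, and a deep library weighs more in that sum than a shallow one.

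Small RNA had been sequenced from milk fat of outbred ICR (CD1) mouse dams with a first litter, on lactation day 10, 1 library per dam. The control group of 5 dams ate a diet with 10% of its energy as fat (3.85 kcal per g), and the high-fat group of 4 dams a diet with 60% (5.24 kcal per g). Both diets held 7% sucrose, were begun at 4 weeks of age, 4 weeks before mating, and were kept through pregnancy and lactation. Cages held pairs of dams of the same diet, so cage mates may share more than their diet. In such bulk RNA, fewer cells of a type and less RNA per cell cannot be told apart.

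A canonical miRNA is cut from a hairpin by Drosha and Dicer, which leave a 5p and a 3p arm of fixed ends, and Argonaute keeps mainly one arm whose seed, bases 2 to 8, selects its targets. A mirtron is an exception, a short intron whose ends are set by splicing in place of Drosha. Names added to the catalogue after deep sequencing began include true hairpins of low abundance, mirtrons, and short reads that can equally come from tRNA, snoRNA, rRNA or repeated elements such as the B1 and B2 SINEs, the short interspersed repeats of rodents. Milk fat globules enclose cytoplasm of the secretory epithelium, and their RNA is read as a sample of that cell.

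Mature sequences were matched to RefSeq (GRCm38.p6) by name for 104 of the 117 members. A few are printed because the results turn on them. Capitals mark the seed, bases 2 to 8, and all are written 5′ to 3′. The first 5 show the B1- and B2-like letters and the tRNA-like letters of leading members, the next 3 the GC-rich members, the next 2 the arms of 1 hairpin, and the last 3 a sequence found in a snoRNA and introns that end in the letters ag.
miR-3470b: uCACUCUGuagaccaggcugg
miR-3473b: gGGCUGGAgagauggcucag
miR-3473e: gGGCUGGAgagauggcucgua
miR-5100: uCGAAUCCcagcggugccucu
miR-3968: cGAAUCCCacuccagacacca
miR-5126: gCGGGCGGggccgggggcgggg
miR-6538: cGCGGGCUccggggcggcg
miR-2137: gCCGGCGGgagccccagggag
miR-3068-5p: uUGGAGUUcaugcaaguucuaacc
miR-3068-3p: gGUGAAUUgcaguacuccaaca
miR-5121: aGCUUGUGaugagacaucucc
miR-7116-3p: uUUUUUUCcuuugccuucucag
miR-6921-3p: uGACUACUccuugccucucag

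The shallowest library, control 5, held 837817 counts and the deepest, high-fat 2, held 3897109, a 4.65-fold range. The 9 libraries differed in marker miRNAs as well. The 9 epithelial markers held 47.1% of control library 5 and between 50.3% and 53.1% of every other library. The 5 leukocyte markers held 1.14% of high-fat library 1 and 0.287% of high-fat library 3, against 0.00777% to 0.0762% elsewhere. Red-cell markers were highest in high-fat library 3, at 0.0504%. That library was highest for striated muscle markers too, at 0.00910%, and no other library exceeded 0.000562%. Stroma markers peaked at 2.57% of the counts of high-fat library 4, and control library 5 was lowest for them, at 1.03%. No marker list was wholly at 0, and 1 of 3 striated muscle markers had no count. The part of these differences in the results below was not tested.

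Members were rare. Together they held 19050 counts, with a median sum of 14 per member against 212 for older names. The most abundant, miR-3968, ranked 115th of all names, and the 5 leading members held 50.0% of the members' counts. Only 30 members had a count in all 9 libraries, 48 had one in 4 or fewer, and 2 in a single library. At the threshold, 9 members stood at 5 counts, among them miR-7015-3p, and 10 further names stood at 4 counts, among them miR-5114. By number, miR-1983 with 764 counts and miR-1982-3p with 10 fell just below 2000, and miR-2137 with 1922 and miR-3057-5p with 19 just above.

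Levels are given as CPM, counts scaled to a common library size, with library sizes adjusted by trimmed mean of M values (TMM). Names with at least 5.25 CPM in 4 libraries and 15 counts in all were tested. That left 22 members, 18.8% of them, beside 290 older names, 58.8% of those, and 95 members were not tested. Since the tested members hold 90.9% of the counts, any total over the members is mostly theirs.

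The members' share of all counts was 0.0964%, 0.137%, 0.108%, 0.0913% and 0.359% in control libraries 1 to 5. It was 0.0893%, 0.0614%, 0.0945% and 0.0989% in high-fat libraries 1 to 4. Control library 5, the shallowest, stood above all others and high-fat library 2, the deepest, below all others. The mean was 0.158% ± 0.114 (SD, n = 5) in controls and 0.0860% ± 0.0169 (SD, n = 4) in high-fat dams. Without control library 5 the control mean was 0.108% ± 0.0205 (SD, n = 4).

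Members with a count numbered 59 in control library 5 and 72 to 81 in the other libraries. When each library was thinned to 837817 counts, the expected number was 62.8 ± 3.21 (SD, n = 5) in controls and 58.2 ± 2.62 (SD, n = 4) in high-fat dams, and the lowest value was 54.7, for high-fat library 2. For older names, the expected number ran from 359.0 to 398.9 in controls and from 343.7 to 411.7 in high-fat dams. High-fat library 2 was the lowest for them too, so its low value was not particular to members. Where a member was not counted, up to 3 counts remain possible, equal to 3.58 CPM in control library 5 and 0.770 CPM in high-fat library 2. This limit covers counting error only.

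By their sequence and place, the members fell into 6 classes, each member entering the first that applied. Exact matches in annotated transcripts of 10 or more genes put 4 members in the class of many genes, 3 of them tested. An exact match in an annotated short non-coding RNA held for 7 more, 2 of them tested. An arm that ends within 1 base of an intron's end held for 31, none of them tested. A counted opposite arm held for 27, with 4 tested, and 35 were left as other, with 10 tested. The 13 members without a listed sequence, 3 of them tested, were kept apart, and they include miR-3470a, miR-5099 and miR-3970.

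**Figure D1:**
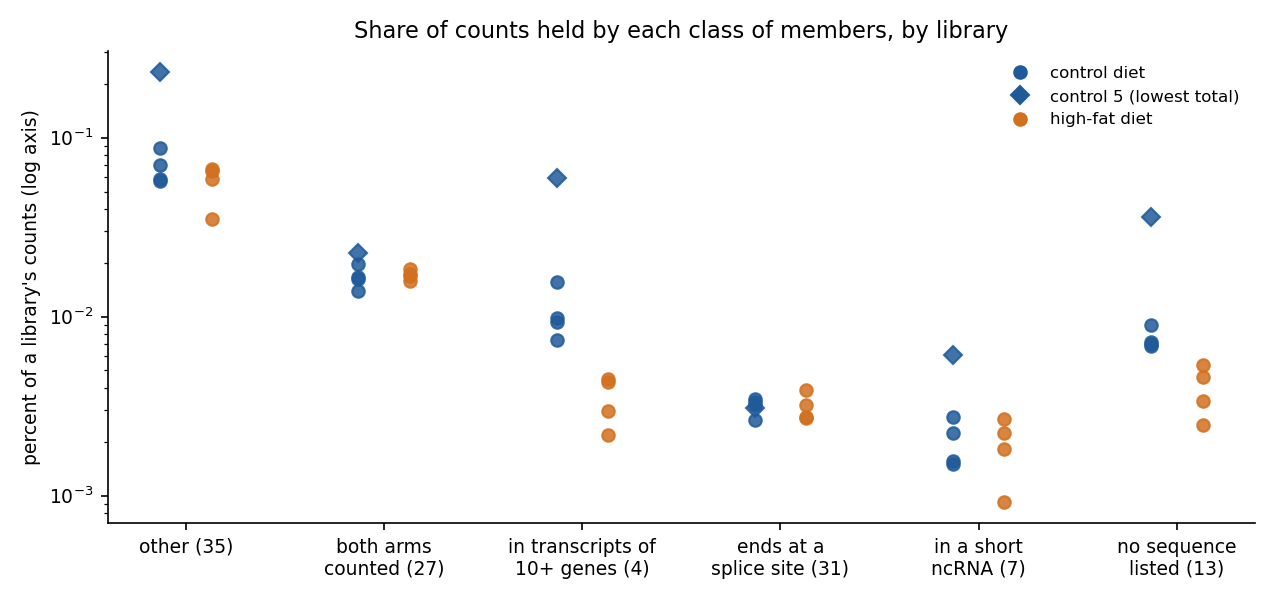
Percent of each library's counts (log axis) held by the 6 classes of members, with the number of members in brackets. Points are libraries, blue for control, orange for high-fat, and the diamond is control library 5. In the class of many genes control library 5 lies at 0.0594% and the high-fat libraries at 0.00218% to 0.00446%, while the splice-site class lies between 0.00263% and 0.00390% in all libraries.

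The share of the splice-site class was 0.00314% ± 0.000317 (SD, n = 5) in controls and 0.00314% ± 0.000557 (SD, n = 4) in high-fat dams, and control library 5, at 0.00310%, lay among the others. The class with both arms counted stood at 0.0178% ± 0.00337 (SD, n = 5) and 0.0171% ± 0.00113 (SD, n = 4). By contrast, the share of the class of many genes was 0.0594% in control library 5, between 0.00738% and 0.0157% in the other controls, and between 0.00218% and 0.00446% in high-fat libraries. The diets did not overlap in that class, whose level is almost wholly that of miR-3470b, miR-3473b and miR-3473a. Of its members only miR-3470b had all high-fat libraries below all controls, as 1.60% of all tested names did. The diets overlapped for miR-3473b, miR-3473a and miR-3471. The class without a listed sequence, which holds miR-3470a, did not overlap either, and the remaining classes did. The share of the 95 members that were not tested was 0.0108% ± 0.00268 (SD, n = 5) in controls and 0.00908% ± 0.000464 (SD, n = 4) in high-fat dams.

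Among members with 3p names and a sequence, 30 of 44 (68.2%) ended within 1 base of an intron's end, against 2 of 182 (1.10%) of older 3p names. The last letters of 23 of the 44 (52.3%) were AG, the letters that close most introns, against 9 of 182 (4.95%). These matches are positions in the annotation, and they do not show how the RNA was made. The class leaders were few-count names, and miR-3064-3p, with 82 counts, led. It lies in Ddx5, a gene for an RNA helicase that works with Drosha, at 11:106782695-106782716 on the minus strand, in sequence that some transcripts keep as exon. Next was miR-6988-3p, with 55 counts, at the end of an intron of Syvn1, a ubiquitin ligase gene of the endoplasmic reticulum.

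Acly and Srebf1, genes of lipid synthesis, host 2 further names of this class, chosen here after their values were seen. miR-7116-3p, printed above, ends an intron of Acly, whose enzyme makes cytosolic acetyl-CoA for fatty acid synthesis, at 11:100478411-100478432 on the minus strand. Its counts were 3, 1, 6, 0 and 2 in controls and 8, 16, 9 and 1 in high-fat libraries, too few to enter the fit. The opposite arm, miR-7116-5p, had 27 counts in all against 46 for the 3p arm. miR-6921-3p ends an intron of Srebf1, the gene of a main regulator of lipid synthesis, at 11:60200538-60200558 on the minus strand, and had 23 counts in all.

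**Figure D2:**
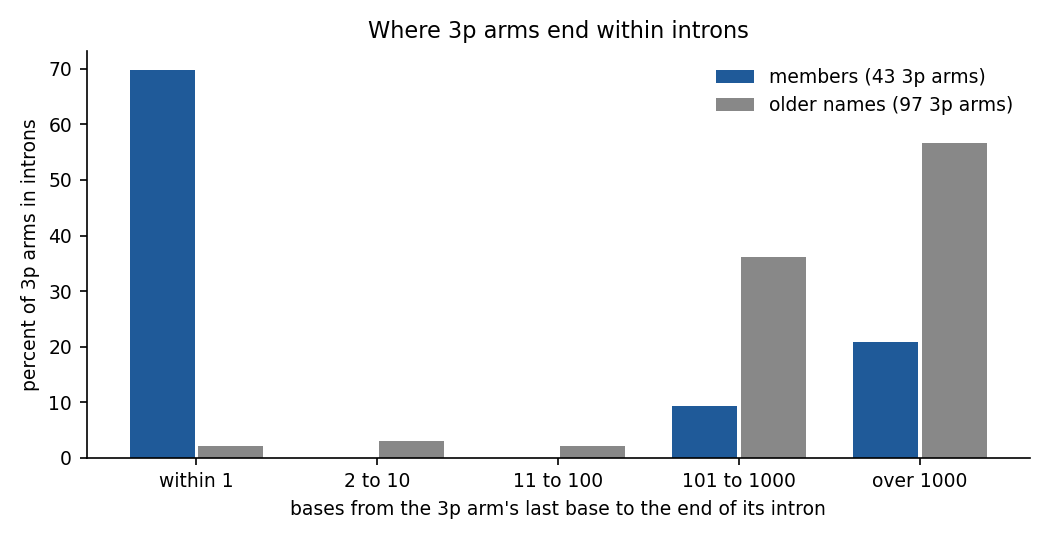
Percent of 3p arms lying in introns (43 members, 97 older names) by the number of bases from the arm's last base to the end of its intron. Of the members, 30 end within 1 base and none of the others within 100, while 2 of the older arms end within 1 base.

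A counted opposite arm was found for 46 of the 80 members whose precursor lists another arm (57.5%), and for 392 of 454 older names (86.3%). The hairpins mir-3068 and mir-3105 were the only ones with both arms tested. miR-3068-5p had 73, 79, 112, 40 and 77 counts in controls and 125, 222, 144 and 126 in high-fat libraries. Its CPM was 52.8 ± 25.7 (SD, n = 5) and 62.3 ± 10.5 (SD, n = 4), so the diets overlapped. Its partner miR-3068-3p stood at 41.2 ± 8.18 (SD, n = 5) and 35.0 ± 11.8 CPM (SD, n = 4). The hairpin lies in an intron of Alkbh1, a demethylase gene.

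The counts of miR-3105-3p were 92, 59, 123, 79 and 57 in controls and 128, 234, 78 and 68 in high-fat libraries. These correspond to 52.8 ± 8.90 (SD, n = 5) and 47.1 ± 11.4 CPM (SD, n = 4), and the diets overlapped. miR-3105-5p, the rarer arm, stood at 12.4 ± 3.70 (SD, n = 5) and 10.9 ± 1.96 CPM (SD, n = 4). Both arms lie in an intron of Shank2. The share of these 4 arms together was 0.0159% ± 0.00305 (SD, n = 5) in controls and 0.0155% ± 0.000863 (SD, n = 4) in high-fat dams.

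Letters of repeats marked several members. The sequence of miR-3470b occurs in transcripts of 1016 genes, in 546 on the sense and in 497 on the antisense strand, and in 2 short misc_RNA models. As background, these letters are found in the B1 element, read on its reverse strand. miR-3473b occurs in transcripts of 725 genes and miR-3473a in 281, both with letters found in the B2 element. A 4th, miR-3471, occurs in 61, and its 8 counts were all in control libraries 4 and 5. Of 397 older names with a sequence, 1 reached 10 genes. RefSeq lists a single locus for each of these names, such as 16:44013885-44013905 on the plus strand for miR-3470b, antisense to an intron of Gramd1c. Reads with these letters cannot be assigned to that locus by sequence alone.

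The run GAGAUGGCU, sought on both strands after the sequences had been read, was present in 5 of 104 members and in 0 of 397 older names. The 5 are miR-3473a, miR-3473b, miR-3473e, miR-5128 and, on the other strand, miR-7667-5p. miR-3473b and miR-3473e also share a seed, GGCUGGA, and differ only near their 3′ end, so reads may be split between them. miR-5128, with 12 counts, had all of them in controls. miR-7667-5p had 0, 0, 0, 3 and 8 counts in controls and 3, 0, 5 and 2 in high-fat libraries. Like miR-5128 and miR-3471, other rare members were counted in a single diet, in either direction. The share of all rare names for which this holds was not computed, so the examples describe single names and not the members. With so few counts, a name can be missed in a diet where it is present. Among them were miR-6380 (14 counts) and miR-3060-3p (9) in controls, and miR-5104 (9) and miR-7662-3p (6) in high-fat libraries.

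The run CGAAUCC, chosen in the same way, was present in miR-3968 and miR-5100, the leading pair of members, and in 1 of 397 older names. As background, these letters belong to the T arm of many tRNAs, and mature tRNAs end in CCA, as miR-3968 does. Sequences of nuclear tRNAs and of the long nuclear ribosomal RNAs were not used here. In RefSeq miR-5100 lies in an intron of Mief2 at 11:60728698-60728718 on the plus strand, and miR-3968 at 11:115447969-115447989 on the minus strand, antisense to an exon of Trim80.

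Exact matches in short non-coding RNA were found for 9 of 104 members (8.65%), miR-3470b and miR-3473b included, and for 8 of 397 older names (2.02%). miR-5121 lies within Snord33, a box C/D snoRNA of the Rpl13a gene, at 7:45126925-45126945 on the minus strand. miR-3535 lies within the snoRNA model Gm24148 in the Ncl gene, and miR-3084-5p and miR-3084-3p within Snora19. miR-6516-5p and miR-3069-3p match scaRNAs, the guide RNAs of Cajal bodies, and miR-6481, with 8 counts, matches the mitochondrial phenylalanine tRNA.

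GC content was a further shared feature. The median was 59.1% for tested members against 45.6% for tested older names. miR-5126 consists of G and C alone (100%), and miR-6538 reached 94.7%, miR-2137 85.7% and miR-6236 78.9%. Seeds were rarely shared with older counted names (4 of 104, against 125 of 397 older names that share theirs). The only member within 2 edits of an older name was miR-3962, whose 20 bases align inside let-7g-5p with 1 edit. It had 13 counts, against 438014 for let-7g-5p.

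**Figure D3:**
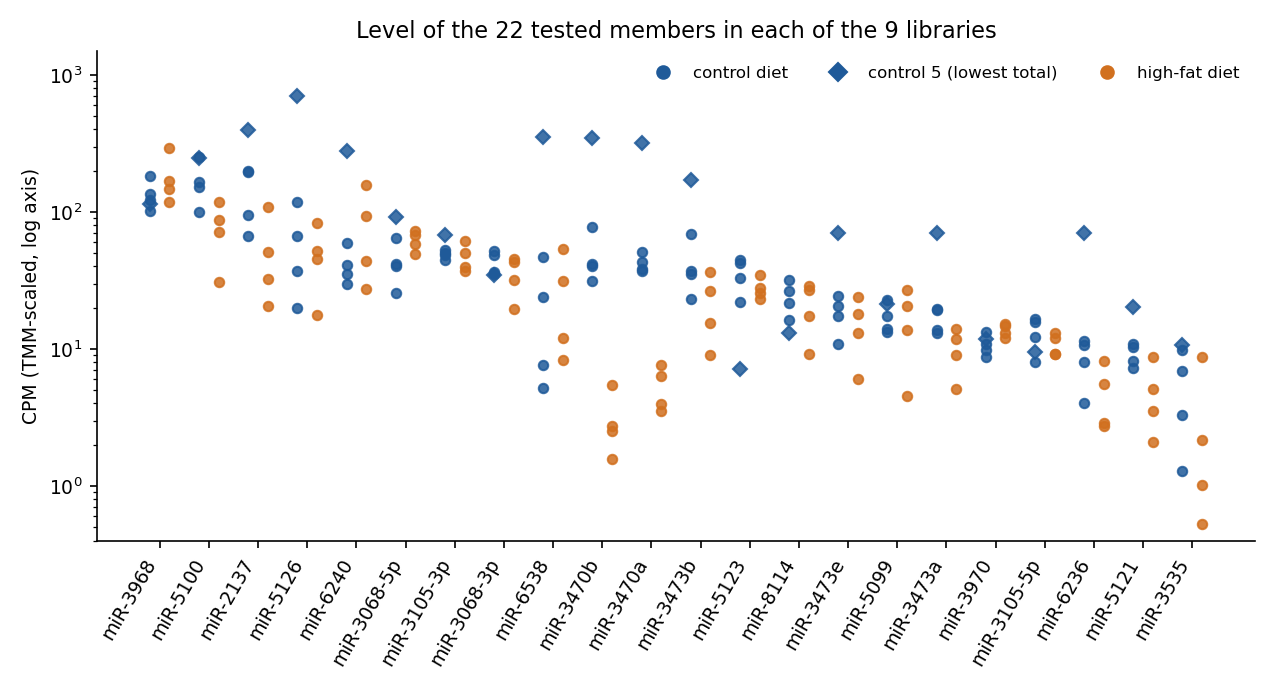
CPM (TMM-scaled, log axis) of the 22 tested members in each library, ordered by summed count. Blue points are controls, the blue diamond is control library 5, and orange points are high-fat libraries. Only miR-3470b and miR-3470a have all high-fat libraries below all controls.

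The diet comparison asked whether any of these names differed in milk fat between the control and high-fat dams. No name was called at an adjusted p below 0.05 by limma-voom, a moderated linear model on weighted log2 CPM with Benjamini-Hochberg adjustment over the 312 tested names. That is 0 of 22 members and 0% of all tested names, while limma-trend, which weights all values alike, called 2 names, miR-3470a and miR-3470b. At an unadjusted p below 0.05, 6 of 22 members were lower in high-fat dams against 5.77% of all tested names, and 0 of 22 were higher against 4.49%. Fold changes were below 0 for 17 of 22 members against 49.4% of all names, and their median was -0.57 against 0.00 on the log2 scale. With library total as a covariate, 2 of 22 were lower at an unadjusted p below 0.05, against 1.92% of names, and the median was -0.20. The median was -0.30 without control library 3 and -0.36 without high-fat library 2, where 4 of 22 were lower against 5.67% of names. All high-fat libraries lay below all controls for 2 of 22 members against 1.60% of names, and above them for 0 of 22 against 3.21%. The members were chosen by their counts, so these shares describe the 22 and are not a test of the group. Of the 6 members lower in high-fat dams at an unadjusted p below 0.05 by limma-voom, miR-3470b, miR-3470a and miR-5121 met the filter of 5.25 CPM in 4 libraries only through the controls. Their place among the tested names thus rests on the group where they were high. Among other members with fold changes below 0, miR-6236 and miR-3535 were below 5.25 CPM in several high-fat libraries. miR-3473a and miR-5099 were below it in high-fat library 3, so these members also needed controls to pass.

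**Figure D4:**
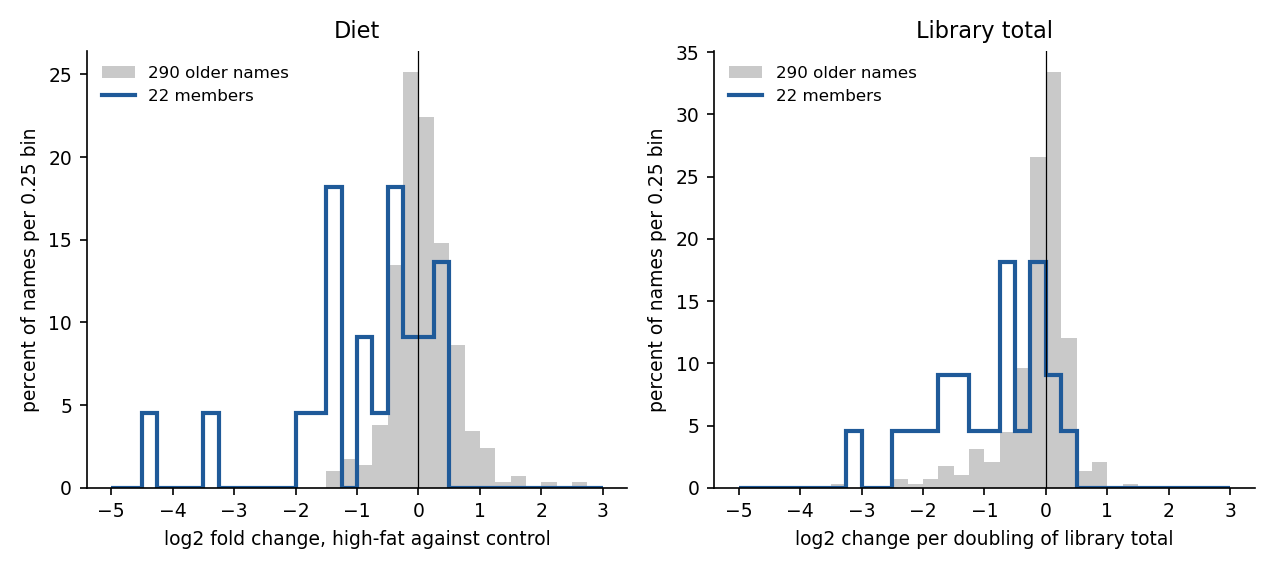
Distribution of the log2 fold change between diets (left) and of the log2 change per doubling of library total (right) over 22 tested members (blue outline) and 290 older tested names (grey), as percent of names per bin. The members' medians are -0.57 and -0.66, while those of all 312 names are 0.00 and -0.03.

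The members below all controls were miR-3470b and miR-3470a. No sequence was listed for miR-3470a, so whether both names can share reads was not checked, and they may not be independent. miR-3470b had 70, 95, 115, 49 and 291 counts in controls and 7, 6, 5 and 10 in high-fat libraries. Its CPM ranged from 31.3 to 346 in controls and from 1.58 to 5.43 in high-fat dams, so no high-fat library came near the lowest control. The log2 fold change was -4.41 ± 1.12 (SE; adjusted p 0.170, limma-voom).

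miR-3470a had 75, 62, 106, 58 and 267 counts in controls and 16, 15, 7 and 14 in high-fat libraries. In CPM these were 43.2, 50.7, 38.4, 37.0 and 317 against 6.30, 3.96, 3.54 and 7.60, with control library 5 far above the other controls. The log2 fold change was -3.44 ± 0.83 (SE; adjusted p 0.170, limma-voom). Leaving out control library 5 changed the limma-voom call. Without it the fold changes were -3.94 ± 0.50 for miR-3470b and -3.03 ± 0.33 for miR-3470a, and limma-voom gave adjusted p of 0.00270 and 0.00158. Without that library 4 names were called, 2 of them members. With library total as a covariate the values were -3.16 ± 0.89 and -2.45 ± 0.74, neither of them called.

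The other members with an unadjusted p below 0.05 overlapped between diets. miR-5100 had 152, 253, 99.3, 164 and 247 CPM in controls and 87.1, 30.9, 71.8 and 119 in high-fat libraries, 3 of which lay below every control. Its log2 fold change was -1.33 ± 0.41 (SE; adjusted p 0.277 by limma-voom), and -0.58 ± 0.28 with library total as a covariate. miR-2137 had 94.4, 195, 200.0, 66.3 and 398 CPM in controls and 108, 32.2, 20.7 and 51.0 in high-fat libraries, with a fold change of -1.78 ± 0.58 (SE). For miR-5121, which matches Snord33, CPM was 11.4 ± 5.16 (SD, n = 5) against 4.85 ± 2.82 (SD, n = 4), and its log2 fold change of -1.34 was -0.66 with library total as a covariate. miR-3473b, with B2-like letters, stood at 66.7 ± 60.1 (SD, n = 5) against 21.8 ± 12.1 CPM (SD, n = 4), and the control mean was 40.9 ± 19.5 (SD, n = 4) without control library 5. Its log2 fold change of -1.37 was -0.34 with library total as a covariate.

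Further members had smaller log2 fold changes, among them miR-3968 (0.39), miR-8114 (-0.38), miR-3970 (0.37), miR-5099 (-0.29) and miR-5123 (0.05). miR-3968 stood at 132 ± 30.5 (SD, n = 5) and 182 ± 78.1 CPM (SD, n = 4), with high-fat library 3 highest at 295. miR-8114, in an exon of Glul, the glutamine synthetase gene, stood at 21.9 ± 7.58 (SD, n = 5) and 20.5 ± 9.04 CPM (SD, n = 4). miR-5123 lies in an intron of B4galt1, the galactosyltransferase gene used in lactose synthesis, at 4:40850057-40850080 on the minus strand. It was low in control library 5 alone, at 7.13 CPM, and lay between 22.1 and 44.9 CPM in the other 8 libraries. miR-3970 and miR-5099 likewise overlapped, at 10.9 ± 1.82 (SD, n = 5) against 13.8 ± 1.45 CPM (SD, n = 4), and 17.8 ± 4.30 (SD, n = 5) against 16.5 ± 9.65 CPM (SD, n = 4).

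Library totals were next set against the members' levels. A second limma-voom fit estimated the log2 change in CPM per doubling of library total, with diet in the model. A name whose share of a library does not vary with its total has a slope of 0, and a name with the same raw count in every library a slope of -1. No name was called at an adjusted p below 0.05 (0 of 22 members, 0% of all tested names), and limma-trend called 0 as well. At an unadjusted p below 0.05, 10 of 22 members were lower in deeper libraries against 5.45% of all names, and 0 of 22 were higher against 0.962%. Slopes were below 0 for 19 of 22 members against 53.8% of names, with a median of -0.66 against -0.03. The 8 names with the smallest p among all 312 were members, with adjusted p between 0.231 and 0.253 by limma-voom. With no filter on low counts, 26 of 117 members were lower at an unadjusted p below 0.05 by limma-voom, against 20.8% of names. Slopes were then below 0 for 86 of 117 members against 75.1% of names, with a median of -0.65 against -0.53. Over all members, these shares thus lay near those of all names.

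Control library 5 carries most of the count at an unadjusted p below 0.05. Its CPM was the highest of the 9 libraries for 14 of 22 members against 20.2% of all names. The deepest, high-fat library 2, had the lowest CPM for 9 of 22 members against 15.4% of all names. Without control library 5, 1 of 21 tested members was lower at an unadjusted p below 0.05, against 2.27% of names. Slopes were still below 0 for 17 of 21 members against 57.1% of names, with a median of -0.43 against -0.06. Leaving out the shallowest library also narrows the range of totals. The total of a library and whatever else sets control library 5 apart cannot be told apart here, and its epithelial marker share of 47.1% was the lowest.

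**Figure D5:**
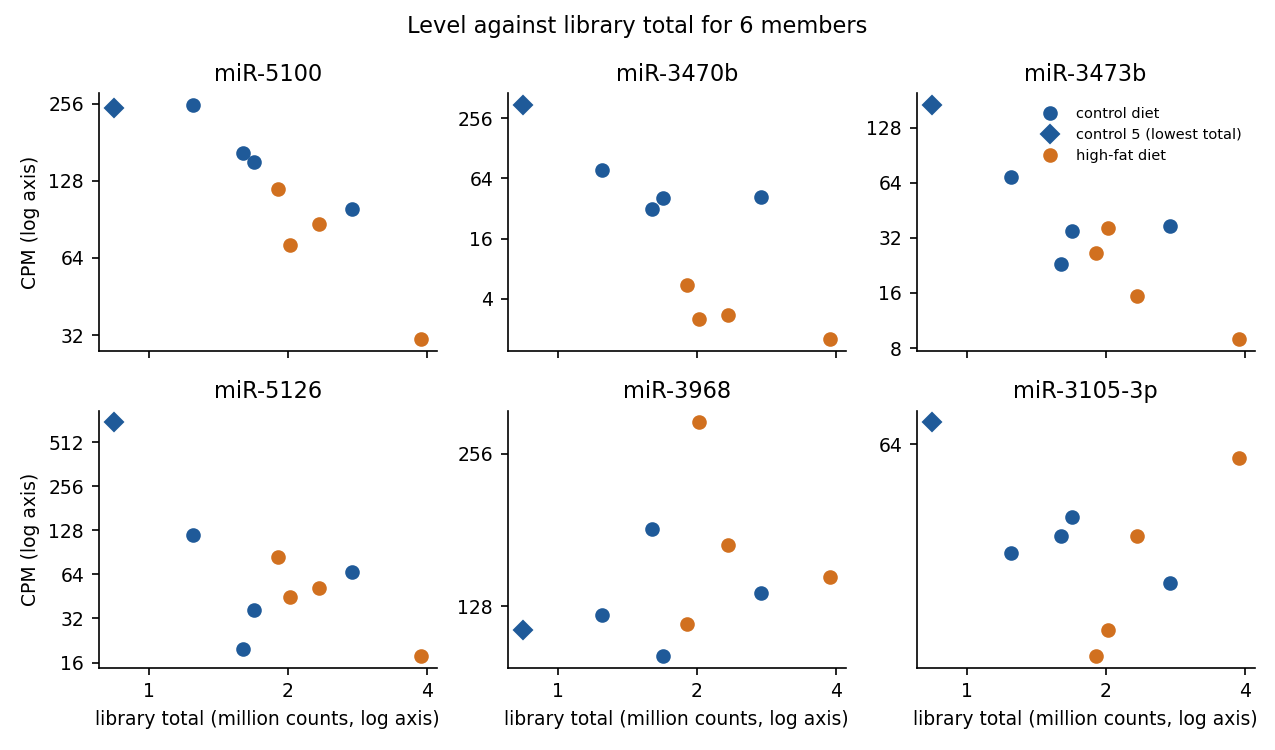
CPM (log axis) against library total (log axis) for 6 members, with controls in blue, control library 5 as a diamond and high-fat libraries in orange. miR-5100 is highest in the 2 shallowest libraries, lowest in the deepest and falls unevenly between. miR-3470b also differs between diets at like totals, and miR-5126 is high mainly in control library 5. miR-3968 and miR-3105-3p show no order by total.

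miR-5100 was the member with the smallest p against library total. Its raw counts were 264, 309, 274, 257 and 208 in controls and 221, 117, 142 and 219 in high-fat libraries. They varied 2.64-fold while totals varied 4.65-fold, and the deepest library had the lowest count. The slope was -1.05 ± 0.23 (SE; adjusted p 0.231 by limma-voom), and -1.37 ± 0.27 without control library 5. In the 7 libraries that remain without the shallowest and the deepest it was -1.12 ± 0.35, and there miR-5100 was the 1 of 21 tested members lower at an unadjusted p below 0.05, against 2.33% of names.

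miR-5126, made of G and C alone, had 64, 146, 183, 31 and 588 counts in controls and 131, 67, 89 and 154 in high-fat libraries. Control library 5, with the lowest total, thus had the most counts. Its 699 CPM was 5.85 times the next highest library. The slope was -2.42 ± 0.65 (SE), and -1.09 ± 0.67 without control library 5.

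miR-6538, also GC-rich, had 9, 57, 66, 12 and 297 counts in controls and 21, 46, 62 and 98 in high-fat libraries. Its 353 CPM in control library 5 was 6.64 times the next highest. The slope was -3.03 ± 0.88 (SE), and -1.03 ± 0.92 without that library. miR-6236 had 59 counts in control library 5 and 7 to 22 in the others, and its slope of -2.02 ± 0.59 (SE) became -0.68 ± 0.62. The slope of miR-2137, also GC-rich, was -0.57, and 0.13 ± 0.64 without control library 5. miR-6240 had 52, 50, 163, 55 and 235 counts in controls and 69, 166, 183 and 287 in high-fat libraries, with a slope of -1.37 and of -0.51 ± 0.64 without control library 5.

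Slopes of the miR-3470 and miR-3473 members were negative as well. They were -1.97 ± 0.45 (SE) for miR-3470b, -1.68 ± 0.46 for miR-3470a, -1.54 ± 0.39 for miR-3473b and -1.37 ± 0.38 for miR-3473e. Without control library 5 they were -0.69 ± 0.47, -0.34 ± 0.35, -1.06 ± 0.50 and -0.99 ± 0.49 in that order. miR-3473a, at 70.1 CPM in control library 5 and 5.06 to 19.6 in the others, had a slope of -0.74 and of 0.09 ± 0.44 without that library. The tested members that match a snoRNA gave -0.93 ± 0.40 (miR-5121) and -0.52 ± 0.86 (miR-3535).

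The arms of mir-3068 and mir-3105 had slopes between -0.53 and 0.09, and 2 of them, miR-3068-5p and miR-3105-3p, also had their highest CPM in control library 5. The slopes were -0.53 ± 0.29 (SE; miR-3068-5p), -0.28 ± 0.30 (miR-3068-3p), 0.05 ± 0.24 (miR-3105-3p) and 0.09 ± 0.35 (miR-3105-5p). Slopes near 0 were also found for miR-3968 (-0.02 ± 0.29), miR-3970 (-0.10 ± 0.30), miR-5099 (-0.13 ± 0.50), miR-8114 (-0.14 ± 0.43) and miR-5123 (0.28 ± 0.39). The difference between these slopes and those of the repeat-like or GC-rich members was not tested. miR-3968 and miR-5100 share the run CGAAUCC, yet their slopes were -0.02 ± 0.29 and -1.05 ± 0.23.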

How the data were processed

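Read counts of known mature miRNAs were deposited by the authors as 1 table, with 2059 rows and comma separators in 833 cells, which were removed. Per the submitters' processing notes, cutadapt 1.9.1 and the build GRCm38 were used. For the aligner, the counter, the miRBase release and any merging of PCR copies, the entry reads "not given in the sources used here". In each library the highest row of a mature name was kept. A count filter (10 counts in the median library, 5.25 CPM, in 4 libraries, and 15 in total) kept 312 names, and the rest held 0.0470% of counts. TMM factors were written out in R 4.3.3 (30% of ratios and 5% of levels trimmed), and limma 3.58.1 (voom) fitted diet alone, or log2 library total with diet. Scripts were tested on simulated data. Sequences and places came from RefSeq tables and gene models of GRCm38. Named are all tested members, the 10 most abundant, the leader of each class and names at the thresholds. Further rare names (those of Acly, Srebf1, snoRNA and repeat-like matches, and those counted in a single diet) were chosen after their values were seen. Members and lists were chosen with earlier results of these data known.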

Additional observations from a re-analysis of the deposited data

Results flagged for a closer look

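Of 46 groups of libraries checked (each tested member, and the members' share, within each diet), 3 held a library far from its fellows, where chance alone gives about 1 in 20 groups (2.30 here). All 3 were high in control library 5, the shallowest. miR-3470a reached 8.31 log2 CPM there, and 5.22 to 5.67 in the other controls. miR-3473a reached 6.14 log2 CPM, against 3.75 to 4.31. The members' share of counts was 0.359%, against 0.0913% to 0.137%. What sets that library apart was not tested.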

How the results depend on the processing

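The count of names called between diets was 0 and depended on the settings. It was 1 with no filter on low counts (miR-1195), 2 with library quality weights (0 members), and 2 with limma-trend (miR-3470a and miR-3470b). Leaving out each library in turn gave 0 to 4, the 4 being without control library 5. The replicate numbers do not pair the libraries: same-numbered libraries' deviations correlated at 0.06, -0.08, 0.20 and -0.16. A fit with the replicate number as a block called 3 names (both miR-3470 members and miR-10b-5p). Only control library 5 has number 5, so in that fit it does not enter the diet fold change. Against library total the count was 0, 2 with no filter (miR-6239 and miR-7667-5p) and 5 with no diet term (all members). Leaving out each library in turn gave 0 to 4, the 4 (miR-3470b, miR-3473b, miR-5126 and miR-6538) being without control library 3. Why the counts moved was not tested. Counts held with median-of-ratios factors, library totals alone and summed rows. The members' mean shares moved by less than 1 SD under every alternative tried. The control SD is set mostly by control library 5, being 0.114 with it and 0.0205 without it. The control mean was 0.158% with that library and 0.108% without it. Counting members with matches in 5 or 100 genes in place of 10 gave 4 and 3.

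Some single values changed sign, and the cause was not tested. Diet fold changes turned for miR-6538 (0.29 with quality weights, 0.35 with the block, 1.60 with library total as a covariate) and miR-5123 (-0.11, -0.31 and -0.16 in that order), and with the covariate for miR-5126 (0.72) and miR-3473e (0.18). With libraries left out in turn they ran from -0.25 to 0.60 for miR-6240, -0.87 to 0.36 for miR-6538, -0.25 to 0.21 for miR-5123, -0.59 to 0.01 for miR-8114 and -0.57 to 0.16 for miR-5099. Slopes turned for miR-3968 (0.01 with quality weights, 0.02 with limma-trend, 0.00 with summed rows, 0.16 with no diet term), miR-3105-3p (-0.02 with limma-trend and with no diet term), miR-8114 (0.10 with limma-trend), miR-3970 (0.07 with no diet term) and miR-3105-5p (-0.04 with no diet term). In the 7 libraries without the shallowest and the deepest, an alternative chosen after seeing the data, they were 0.09 for miR-3968, 0.81 for miR-2137, -0.05 for miR-3105-3p, -0.60 for miR-5123 and 0.53 for miR-8114. With libraries left out in turn, slopes ran from -0.13 to 0.13 (miR-3968), -1.47 to 0.13 (miR-2137), -0.25 to 0.27 (miR-3105-3p), -0.70 to 0.12 (miR-3068-3p), -0.11 to 0.88 (miR-5123), -0.70 to 0.61 (miR-8114), -0.49 to 0.12 (miR-5099), -1.19 to 0.09 (miR-3473a), -0.28 to 0.08 (miR-3970), -0.19 to 0.35 (miR-3105-5p) and -0.76 to 0.04 (miR-3535).

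Matches of members across the genome were planned and not run, since no genome sequence was used here, and transcript matches stand in for them. With 5 and 4 dams, the spread between libraries limits every value, and whether PCR copies were merged before counting is unknown here. The 95 members below the filter entered only the fit without it, where 18 of 117 members were lower in high-fat dams at an unadjusted p below 0.05, against 12.8% of names, and 1 was higher, against 2.42%.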
